A study of Mus musculus with 16 samples.

Results

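Grb7, Ano3, Acsbg1, Ippk, Dhrs2 and Mbnl3 are 6 genes that were read as lower in mouse melanoma tumours carrying a hairpin against Mdk, which encodes midkine, a secreted growth factor. They are 6 of the 16094 genes in the deposited table, and all 6 were among the 14672 genes that passed the filter on low values. The choice rested on the measured values themselves. Mbnl3 was taken from the comparison of anti-PD1 with control antibody in knockdown tumours. For the other genes the grouping names no antibody, so the choosing comparison was taken from where earlier results of these data named them. This was knockdown against control tumours under the control antibody for Grb7, Ano3 and Acsbg1, and under anti-PD1 for Ippk and Dhrs2. Their choice may also have drawn on the other antibody. The values of each gene in its own choosing comparison are therefore a description and carry no test.

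The tumours were grown in mice by implanting cells of the mouse melanoma line B16R2L. Treatment began at a tumour volume of 100 mm3 and was given 2 times a week for 2 weeks, with anti-PD1, which blocks a checkpoint receptor of T cells (clone RMP1-14, 10 mg/kg per the labels), or with IgG2a, the control antibody, whose dose is not stated. The 4 groups were shMdk with anti-PD1, shMdk with IgG2a, shCtrl with anti-PD1 and shCtrl with IgG2a, with 4 tumours each. Every tumour came from hairpin-bearing cells, since shCtrl is itself a control hairpin. The labels name 1 hairpin line for each arm, so the loss of Mdk cannot be told apart from other differences between these lines. The labels do not give the strain, sex or age of the mice. They describe the samples as tumours without naming the animal, and tumour numbers only name a sample here.

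Libraries read the 3′ ends of polyadenylated RNA on its own strand, and held 5686405 to 8886334 reads per tumour. Values below are normalised read counts, that is, reads divided by a size factor for each library. Some libraries stood apart. Gm42418, a gene model over ribosomal RNA sequence, made up 4.47% of the reads of shCtrl anti-PD1 tumour 2 and 3.17% of those of shMdk IgG2a tumour 1, and 0.880% to 1.56% elsewhere. Genes with GC-rich 3′ ends read high in shMdk anti-PD1 tumour 1, shMdk IgG2a tumours 3 and 4 and shCtrl IgG2a tumours 1 and 2, with slopes of 0.08 to 0.18 log2 units per 10% GC. Slopes of the other libraries were negative, down to -0.11 in shCtrl IgG2a tumour 3. Mdk, the targeted gene, had 312, 290, 147 and 96.5 normalised counts in shMdk tumours 1 to 4 under anti-PD1 and 150, 203, 323 and 121 in shMdk tumours under IgG2a. In shCtrl tumours it had 925, 606, 1104 and 856 under anti-PD1 and 601, 727, 959 and 1161 under IgG2a. No shMdk tumour reached the level of any shCtrl tumour, so the libraries went with their hairpin labels. Mdk overlapped between the antibody groups of each line and is no check of the antibody labels.

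The 6 genes belong to different pathways. GRB7 is an adaptor protein whose SH2 domain binds activated receptor tyrosine kinases such as ERBB2, and in human breast cancer its gene is often amplified together with ERBB2. Anoctamins are membrane proteins that include calcium-activated chloride channels and lipid scramblases, and ANO3 is a neuronal member linked to dystonia in humans. ACSBG1 couples long and very long chain fatty acids to coenzyme A, the step that lets a cell use or store them, and is best known from brain and steroid-producing tissue. IPPK adds the last phosphate that makes inositol hexakisphosphate, the parent of the inositol pyrophosphates. DHRS2 is a short-chain dehydrogenase/reductase, and the human protein reduces dicarbonyl compounds. MBNL3 is a muscleblind protein, a zinc-finger RNA-binding protein that acts on alternative splicing.

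The genes lie on 6 chromosomes of the mouse genome build GRCm38, in the GENCODE M21 annotation. Grb7 (ENSMUSG00000019312.10) is at chr11:98446394-98455373 on the plus strand. Ano3 (ENSMUSG00000074968.11) is at chr2:110655201-110950923 and Acsbg1 (ENSMUSG00000032281.11) at chr9:54604877-54661870, both on the minus strand. Ippk (ENSMUSG00000021385.10) is at chr13:49421249-49464573 and Dhrs2 (ENSMUSG00000022209.12) at chr14:55222007-55241435, both on the plus strand. Mbnl3 (ENSMUSG00000036109.17) is at chrX:51117269-51206532 on the minus strand. Mdk is also on chromosome 2, at chr2:91929805-91932297. Ano3 overlaps Muc15 and Ippk overlaps Cenpp, each on the opposite strand, and the counting kept strands apart.

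Ano3, Acsbg1 and Dhrs2 were the members with an adjusted p under 0.05 in shMdk tumours under both antibodies, so the starts of these 3 genes are shown. The sequences are RefSeq promoter windows of the build GRCm38.p6, from 250 bases before to 50 bases after a start of transcription, 5′ to 3′ on the strand of the gene. Capitals mark matches, on either strand, to 5 letter patterns that were searched for: the E-boxes CACGTG and CATGTG (the core patterns bound by MITF and related factors), TTCNNNGAA (STAT), GAAA followed after any 2 bases by GAAA (the interferon response pattern) and CCAAT (NF-Y). The windows are Ano3 at chr2:110950195-110950494 on the minus strand, Acsbg1 at chr9:54661836-54662135 on the minus strand and Dhrs2 at chr14:55221757-55222056 on the plus strand.
Ano3: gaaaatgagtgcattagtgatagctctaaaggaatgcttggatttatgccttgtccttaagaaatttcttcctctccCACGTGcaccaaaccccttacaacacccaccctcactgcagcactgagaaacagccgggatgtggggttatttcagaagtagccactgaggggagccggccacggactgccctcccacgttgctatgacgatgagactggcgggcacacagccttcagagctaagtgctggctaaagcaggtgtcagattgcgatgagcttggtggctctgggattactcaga
Acsbg1: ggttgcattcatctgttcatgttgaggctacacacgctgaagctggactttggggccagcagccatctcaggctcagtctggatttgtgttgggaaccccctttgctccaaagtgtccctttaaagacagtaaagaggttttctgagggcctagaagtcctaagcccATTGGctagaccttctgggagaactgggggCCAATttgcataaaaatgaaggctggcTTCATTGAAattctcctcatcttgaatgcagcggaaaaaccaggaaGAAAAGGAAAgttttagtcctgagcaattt
Dhrs2: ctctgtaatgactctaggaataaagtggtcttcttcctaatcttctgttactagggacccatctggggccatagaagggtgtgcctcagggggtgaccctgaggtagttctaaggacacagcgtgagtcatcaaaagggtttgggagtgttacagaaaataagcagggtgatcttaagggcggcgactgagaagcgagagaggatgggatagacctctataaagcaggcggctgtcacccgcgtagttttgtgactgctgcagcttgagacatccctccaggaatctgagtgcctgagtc

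The 3 windows had little in common in these letters. Ano3 held CACGTG, which starts at position -173 from the start site and is present in 7.15% of all 32851 RefSeq windows. Acsbg1 held CCAAT at -83 and -53, TTCNNNGAA at -26 and the interferon response pattern at 21, patterns found in 37.4%, 8.3% and 3.44% of all windows. Dhrs2 held none of the 5 patterns, and CATGTG, which 14.2% of all windows hold, was in none of the members' windows. RefSeq windows were matched for 5 of the 6 members, Grb7 being the one left unmatched. A second Ano3 window, the window of Mbnl3 and one of 2 Ippk windows held no match, and the other Ippk window held TTCNNNGAA. A match of letters is a description and not evidence of binding.

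Grb7, the receptor adaptor, was close to the limit of detection in knockdown tumours under the control antibody. It had 8.74, 14.7, 6.78 and 9.31 normalised counts in shMdk tumours 1 to 4 under anti-PD1 and 0, 5.46, 8.53 and 3.15 under IgG2a. In shCtrl tumours it had 13.8, 10.5, 14.9 and 12.6 under anti-PD1 and 22.5, 24.5, 40.9 and 43.4 under IgG2a. Under IgG2a every shMdk tumour was below every shCtrl tumour, whereas under anti-PD1 shMdk tumour 2 lay within the shCtrl values and the groups overlapped. The reads behind these values were few: 43 over the 4 shMdk anti-PD1 tumours, 18 over the shMdk IgG2a tumours, 52 over the shCtrl anti-PD1 tumours and 133 over the shCtrl IgG2a tumours. Group means were highest in shCtrl IgG2a tumours (32.8 ± 10.8, SD, n = 4), followed by shCtrl anti-PD1 (12.9 ± 1.87), shMdk anti-PD1 (9.88 ± 3.38) and shMdk IgG2a tumours (4.29 ± 3.61). The highest group did not overlap its neighbour in this order, and each other neighbouring pair did. The fitted log2 fold change of shMdk against shCtrl was -3.02 ± 0.54 (SE) under IgG2a, the comparison that chose the gene, and stands as a description.

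Ano3, the anoctamin, was lower in knockdown tumours under either antibody. It had 259, 306, 290 and 382 normalised counts in shMdk tumours under anti-PD1 and 305, 387, 352 and 342 under IgG2a. The shCtrl tumours had 595, 716, 549 and 581 under anti-PD1 and 554, 535, 691 and 678 under IgG2a. The highest of the 8 shMdk tumours was below the lowest of the 8 shCtrl tumours. The antibody groups of either line overlapped: shMdk means were 309 ± 52.1 under anti-PD1 and 346 ± 34 under IgG2a, and shCtrl means were 610 ± 73.3 under anti-PD1 and 614 ± 81.4 under IgG2a (SD, n = 4 each). Under IgG2a, where the gene was chosen, its log2 fold change was -0.82 ± 0.15 (SE).

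Acsbg1, the fatty acid activating enzyme, was also lower in both knockdown groups, with 1 close approach between them and the controls. It had 244, 126, 161 and 248 normalised counts in shMdk tumours under anti-PD1 and 195, 137, 154 and 253 under IgG2a. The shCtrl tumours had 267, 329, 329 and 389 under anti-PD1 and 394, 431, 379 and 399 under IgG2a. Within each antibody no shMdk tumour reached a shCtrl tumour, and the nearest pair was 248 in shMdk and 267 in shCtrl tumours under anti-PD1. Means were 195 ± 60.7 and 185 ± 51.7 in shMdk tumours under anti-PD1 and IgG2a, and 328 ± 49.99 and 400 ± 21.8 in shCtrl tumours under anti-PD1 and IgG2a (SD, n = 4 each). The antibody groups of each line overlapped. Under IgG2a, where the gene was chosen, its log2 fold change was -1.15 ± 0.22 (SE).

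Ippk, the inositol hexakisphosphate enzyme, was low and even in shMdk IgG2a tumours and most scattered in shCtrl anti-PD1 tumours. It had 44.7, 70.5, 56.8 and 82.1 normalised counts in shMdk tumours under anti-PD1 and 50.1, 50.9, 53.1 and 43.1 under IgG2a. The shCtrl tumours had 118, 209, 335 and 143 under anti-PD1 and 66.4, 103, 143 and 114 under IgG2a. Within each antibody the lines did not overlap, although shCtrl IgG2a tumour 1, at 66.4, was below 2 of the shMdk anti-PD1 tumours. Means were highest in shCtrl anti-PD1 tumours (201 ± 97.0), then shCtrl IgG2a (106 ± 31.5), shMdk anti-PD1 (63.5 ± 16.3) and shMdk IgG2a tumours (49.3 ± 4.32, SD, n = 4 each), and each neighbouring pair in this order overlapped. Under anti-PD1, where the gene was chosen, its log2 fold change was -1.56 ± 0.30 (SE).

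Dhrs2, the dehydrogenase, had 98.1, 86.2, 74.6 and 130 normalised counts in shMdk tumours under anti-PD1 and 147, 202, 141 and 142 under IgG2a. The shCtrl tumours had 207, 158, 432 and 271 under anti-PD1 and 341, 377, 429 and 317 under IgG2a. The lines did not overlap under either antibody, and within shMdk every anti-PD1 tumour was also below every IgG2a tumour. Tumour 3 of the shCtrl anti-PD1 group was the highest of all 16 tumours for both Dhrs2 and Ippk. Means were 97.1 ± 23.6 and 158 ± 29.4 in shMdk tumours under anti-PD1 and IgG2a, and 267 ± 120 and 366 ± 48.8 in shCtrl tumours under anti-PD1 and IgG2a (SD, n = 4 each). The shMdk IgG2a tumours overlapped the shCtrl anti-PD1 tumours, and the shCtrl antibody groups overlapped as well. Under anti-PD1, where the gene was chosen, its log2 fold change was -1.38 ± 0.25 (SE).

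Mbnl3, the splicing regulator, differed from the other members in that a single group was low. It had 105, 133, 135 and 104 normalised counts in shMdk tumours under anti-PD1 and 241, 247, 250 and 235 under IgG2a. The shCtrl tumours had 161, 233, 203 and 228 under anti-PD1 and 335, 278, 198 and 235 under IgG2a. All 4 shMdk anti-PD1 tumours were below all 12 other tumours, the shCtrl groups overlapped each other, and the shMdk IgG2a tumours overlapped the shCtrl IgG2a tumours. The shMdk IgG2a tumours lay close together (244 ± 6.57), against 262 ± 59.1 in shCtrl IgG2a tumours, and means were 119 ± 17.0 in shMdk and 206 ± 32.9 in shCtrl anti-PD1 tumours (SD, n = 4 each). In shMdk tumours, where the gene was chosen, the log2 fold change of anti-PD1 against IgG2a was -1.04 ± 0.18 (SE), with an adjusted p of 0.0481 that is given as the value that chose it. It was under 0.05 in 6 of 18 alternative settings, and not when any single shMdk tumour other than anti-PD1 tumour 3 was left out (0.0417 to 0.259 over the tumours left out in turn).

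**Figure D1:**
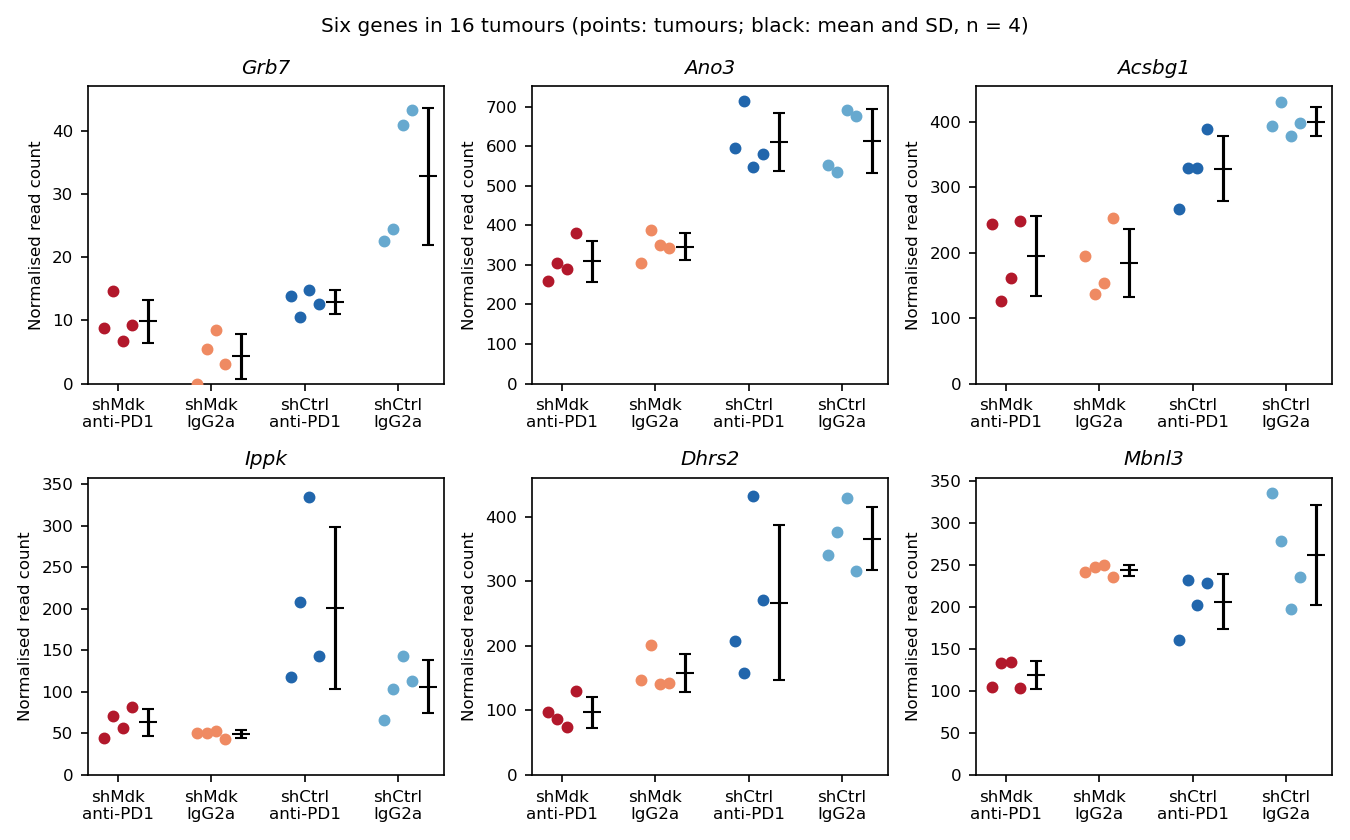
Normalised read counts of the 6 genes by tumour, in 6 panels that each start at 0. Points are single tumours and black marks show the group mean and SD of 4 tumours, with shMdk groups left of shCtrl groups; Ano3 separates the lines under both antibodies, Grb7 stands highest in shCtrl IgG2a tumours (22.5 to 43.4), and Mbnl3 is low in shMdk anti-PD1 tumours alone (104 to 135).

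The name under which the genes were grouped, lower in knockdown tumours, did not hold for every gene under every antibody. Under IgG2a, 4 of the 6 had a limma adjusted p under 0.05 and were lower in shMdk tumours (Grb7, Ano3, Acsbg1 and Dhrs2). That comparison chose Grb7, Ano3 and Acsbg1, so their calls are no test. Mbnl3 averaged 244 against 262 with overlapping groups. Of all genes tested, 0.109% were called lower in that comparison. Without the 5 libraries that favoured GC-rich ends, 2 of the 6 were called there (Grb7 and Ano3), beside 74 genes in all, against 255 in the main fit. That setting leaves out shMdk IgG2a tumours 3 and 4 and shCtrl IgG2a tumours 1 and 2. Fewer tumours and the GC slope therefore cannot be told apart in it. Non-overlapping groups with shMdk lower were found for 5 of the 6 members there, and for 1.93% of all genes. Under anti-PD1, the comparison that chose Ippk and Dhrs2, 5 of the 6 were called lower (all but Grb7), against 0.995% of all genes. There 5 of the 6 did not overlap, against 5.2% of all genes. These shares are set beside the members' counts because the genes were picked from these same comparisons, and nothing is read from their excess. The median log2 fold change of the 6 was -1.10 under IgG2a and -0.89 under anti-PD1, beside medians of -0.01 and -0.02 over all genes tested.

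The comparison that chose Mbnl3 took in all shMdk tumours. For each other gene, knockdown and control were also compared in the 8 tumours that its choosing comparison did not use. The results of both comparisons were known when the genes were brought together, so these tests are not independent support for the grouping. Under anti-PD1, Ano3 was lower in shMdk tumours, with a log2 fold change of -0.99 ± 0.15 (SE, limma adjusted p = 9.47e-04). Acsbg1 was lower there too, at -0.79 ± 0.22 (limma adjusted p = 0.0402), a call close to the threshold. It was lost without shMdk anti-PD1 tumour 2 or 3 or without shCtrl anti-PD1 tumour 2, 3 or 4, with an adjusted p of up to 0.145 in limma. Grb7 had a log2 fold change of -0.40 ± 0.54 under anti-PD1 and did not pass (limma adjusted p = 0.784). Under IgG2a, Dhrs2 was lower in shMdk tumours, with a log2 fold change of -1.21 ± 0.25 (limma adjusted p = 0.0161). Without the 5 libraries that favoured GC-rich ends, a setting with fewer IgG2a tumours, its log2 fold change was -1.09 with a limma adjusted p of 0.250. The call was also lost without shMdk IgG2a tumour 1, 3 or 4 or shCtrl IgG2a tumour 3 (adjusted p of up to 0.0644). Ippk had a log2 fold change of -1.05 ± 0.30 under IgG2a, which missed the threshold in limma (adjusted p = 0.106) and passed in DESeq2 on recovered reads (adjusted p = 0.0276) and in limma without shCtrl IgG2a tumour 1 (adjusted p = 0.0391).

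Tested singly over tumours, Ano3 and Acsbg1 under anti-PD1 and Ippk and Dhrs2 under IgG2a each gave p = 0.0286 in a two-sided exact permutation test, the smallest value that 70 arrangements of 4 against 4 tumours allow. Groups that do not overlap always give this value. The values were known when the genes were brought together, so it is no independent support for them. Grb7 under anti-PD1 gave p = 0.143 in the same exact test.

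**Figure D2:**
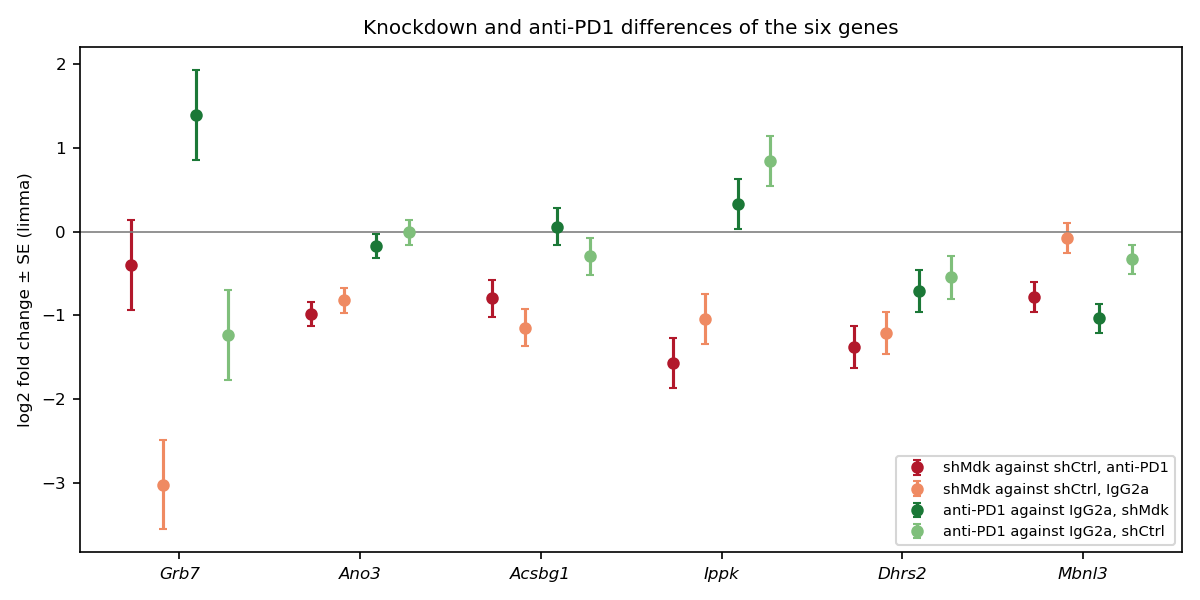
Fitted log2 fold changes with standard errors (limma, vertical axis) of the 6 genes for shMdk against shCtrl under anti-PD1 and IgG2a (red and orange) and for anti-PD1 against IgG2a in shMdk and shCtrl tumours (dark and light green). Ano3 and Dhrs2 have knockdown differences that lie close together under both antibodies (-0.99 and -0.82 for Ano3, -1.38 and -1.21 for Dhrs2), Grb7 has a large one under IgG2a alone, and Mbnl3 has one under anti-PD1 alone; comparisons that share a group of tumours are not independent.

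Only 6 genes in the table were called lower in shMdk tumours under both antibodies with limma, which is 0.0409% of those tested, and 3 of them are members: Ano3, Acsbg1 and Dhrs2. The others were Mdk itself, Smo (the Hedgehog signal transducer) and Dcdc2a (a doublecortin-domain protein), which were named after their values were seen. These 6 were 37.5% of the 16 genes called lower under IgG2a and 4.11% of the 146 called lower under anti-PD1. The antibody arms share no tumours, although all 16 tumours entered 1 fit. The members were picked for low values in these same comparisons, so nothing is read from their presence among the 6.

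The anti-PD1 comparisons reuse tumours of the comparisons that chose the genes, so the differences are given as values, with no test, apart from that of Mbnl3 in shCtrl tumours. In shMdk tumours the log2 fold change of anti-PD1 against IgG2a was 1.40 ± 0.54 for Grb7, -0.71 ± 0.25 for Dhrs2, 0.33 ± 0.30 for Ippk, -0.17 ± 0.15 for Ano3 and 0.06 ± 0.22 for Acsbg1. In shCtrl tumours it was -1.23 ± 0.54 for Grb7, -0.55 ± 0.25 for Dhrs2, 0.84 ± 0.30 for Ippk, -0.01 ± 0.15 for Ano3 and -0.30 ± 0.22 for Acsbg1. The signs of Grb7 and of Acsbg1 differed between the lines, with both values of Acsbg1 small. In shMdk tumours limma called 0.00682% of all genes lower, the single gene Mbnl3, and nothing is read from this because that comparison chose it. In shCtrl tumours, which did not choose it, the log2 fold change of Mbnl3 was -0.33 ± 0.18 (limma adjusted p = 0.798, and p = 0.171 in a two-sided exact permutation test).

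Over all genes, limma called 0% changed by anti-PD1 in shCtrl tumours, where 3.79% had an unadjusted p under 0.05, edgeR called 0% and DESeq2 0.0477%. The interaction, that is, the anti-PD1 difference in shMdk minus that in shCtrl tumours, was called for 0% of all genes in limma, with 3.45% at an unadjusted p under 0.05. Its fitted values were 2.63 ± 0.76 for Grb7 and -0.71 ± 0.25 for Mbnl3 and lay between -0.52 and 0.36 for the other 4 genes. They contain the comparisons that chose the genes and are given with no test. It was not shown that anti-PD1 acted on any of these genes differently in the lines.

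Relatives of the members by family or pathway were mostly not called, which also holds for most genes tested. The 6 lists held 103 tested genes besides the members. In shMdk against shCtrl tumours under anti-PD1, 3 of the 103 were called higher and 1 lower, beside 4.93% and 0.995% of all genes, and 22 had an unadjusted p under 0.05, beside 17.8%. There edgeR called 3 and DESeq2 9 of the 103, beside 5.9% and 8.93% of all genes. Under IgG2a, 1 was called higher and 0 lower, beside 1.63% and 0.109% of all genes. There 13 of the 103 had an unadjusted p under 0.05, against 9.69% of all genes, and edgeR called 1 and DESeq2 2, beside 1.71% and 3.06%. Groups did not overlap, with shMdk lower, for 10 of the 103 under anti-PD1 and 5 under IgG2a, beside 5.2% and 1.93% of all genes. With shMdk higher there were 7 and 4, beside 8.23% and 4.16%. For anti-PD1 against IgG2a, limma called 0 of the 103 in shMdk and 0 in shCtrl tumours, where 12 and 7 had an unadjusted p under 0.05, beside 12.4% and 3.79% of all genes. DESeq2 called 4 of them in shMdk and 0 in shCtrl tumours, beside 1.66% and 0.0477% of all genes. edgeR called 0 in both, beside 0.0545% and 0%.

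Among the receptor and adaptor genes listed with Grb7, 18 others were tested and limma called 0 in shMdk against shCtrl under either antibody. At an unadjusted p under 0.05 there were 2 under anti-PD1 (Kit and Pdgfrb) and 1 under IgG2a (Insr), and DESeq2 called 1 under anti-PD1. Grb10, a paralogue of Grb7 that restrains insulin receptor signalling, averaged 23.2 ± 16 normalised counts in shMdk and 18.5 ± 10.0 in shCtrl tumours under anti-PD1, and 17.7 ± 1.5 in shMdk and 24.4 ± 7.30 in shCtrl tumours under IgG2a (SD, n = 4 each). Erbb2, whose receptor binds GRB7, averaged 23.8 ± 2.06 in shMdk and 28.1 ± 6.21 in shCtrl tumours under anti-PD1, and 31.2 ± 6.30 in shMdk and 32.6 ± 7.33 in shCtrl tumours under IgG2a. The groups of both genes overlapped under either antibody.

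Of the anoctamins, 4 besides Ano3 were tested and limma called 0 in either knockdown comparison, as did edgeR and DESeq2. Ano1, a calcium-activated chloride channel, was the one with an unadjusted p under 0.05, under IgG2a. It averaged 18.7 ± 7.23 normalised counts in shMdk and 32.7 ± 5.15 in shCtrl tumours without overlap (log2 fold change -0.84 ± 0.33, limma adjusted p = 0.354), and under anti-PD1 23.3 ± 10.3 in shMdk and 32.9 ± 7.56 in shCtrl tumours with overlap. Ano6, a lipid scramblase, had knockdown log2 fold changes of 0.00 under anti-PD1 and 0.11 under IgG2a. For Ano8 they were -0.14 and -0.33, and for Ano10 0.04 and 0.21, in the same order.

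Of the other acyl-CoA synthetases, 12 were tested. Acss1, which activates acetate in mitochondria, rose in shMdk tumours under anti-PD1, opposite in direction to Acsbg1. It averaged 149 ± 11.8 there against 91.6 ± 11.5 normalised counts in shCtrl tumours (log2 fold change 0.70 ± 0.20, limma adjusted p = 0.0479). Under IgG2a it averaged 144 ± 36.9 against 93.1 ± 17.5 without overlap and did not pass (log2 fold change 0.61 ± 0.20, limma adjusted p = 0.199). Under anti-PD1 edgeR called 0 of the 12 and DESeq2 called Acss1 and Acsl3. The long-chain enzymes Acsl1, Acsl4 and Acsl5 had knockdown log2 fold changes of 0.15 to 0.24 under anti-PD1 and 0.20 to 0.38 under IgG2a. Acsl3 had -0.58 ± 0.18 under anti-PD1 and -0.37 ± 0.18 under IgG2a, and neither it nor the other 3 passed in limma.

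Of the other inositol phosphate enzymes, 25 were tested. Plcg2, the phospholipase C of immune receptor signalling, rose in shMdk tumours under anti-PD1, with a mean of 104 ± 12.3 against 60.7 ± 12.5 in shCtrl tumours (log2 fold change 0.79 ± 0.20, limma adjusted p = 0.0263). Ipmk, a kinase upstream of IPPK in the same route, had knockdown log2 fold changes of -0.21 ± 0.21 under anti-PD1 and -0.26 ± 0.21 under IgG2a. Itpk1, another kinase of this route, had 0.49 ± 0.22 and 0.30 ± 0.22 in the same order. Neither passed.

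Of the other short-chain dehydrogenases, 22 were tested. Dhrs3, which reduces retinaldehyde, rose in shMdk tumours under anti-PD1, to 121 ± 44.2 against 44.6 ± 6.0 in shCtrl tumours (log2 fold change 1.36 ± 0.31, limma adjusted p = 0.0130). Its direction was opposite to that of Dhrs2. The other Dhrs genes tested (Dhrs1, Dhrs4, Dhrs7, Dhrs7b and Dhrs13) had knockdown log2 fold changes of -0.45 to 0.74 under anti-PD1 and -0.30 to 0.40 under IgG2a, and none of them passed in limma. DESeq2 called 4 of the 22 under anti-PD1: Dhrs3, Dhrs7, Cbr2 and Hsd17b10.

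Of the other splicing factors, 22 were tested. Mbnl1 and Mbnl2, the main muscleblind genes, had knockdown log2 fold changes of 0.03 ± 0.13 and -0.28 ± 0.23 under anti-PD1 and -0.01 ± 0.13 and -0.16 ± 0.23 under IgG2a, and anti-PD1 differences in shMdk tumours of 0.17 ± 0.13 and -0.29 ± 0.23. Their groups overlapped in each of these comparisons. Ptbp1, the general polypyrimidine tract repressor of exons, fell in shMdk tumours under anti-PD1, to 921 ± 62.6 against 1428 ± 102 in shCtrl tumours (log2 fold change -0.63 ± 0.11, limma adjusted p = 0.00296). Under IgG2a Ptbp1 was lower too, at 1277 ± 170 against 1628 ± 74.7 without overlap, where DESeq2 called it and limma did not. DESeq2 also called Ptbp1 for anti-PD1 against IgG2a in shMdk tumours. Its neuronal paralogue Ptbp2 rose under IgG2a, to 115 ± 33.0 against 53.2 ± 12.7 (log2 fold change 1.08 ± 0.25, limma adjusted p = 0.0346).

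**Figure D3:**
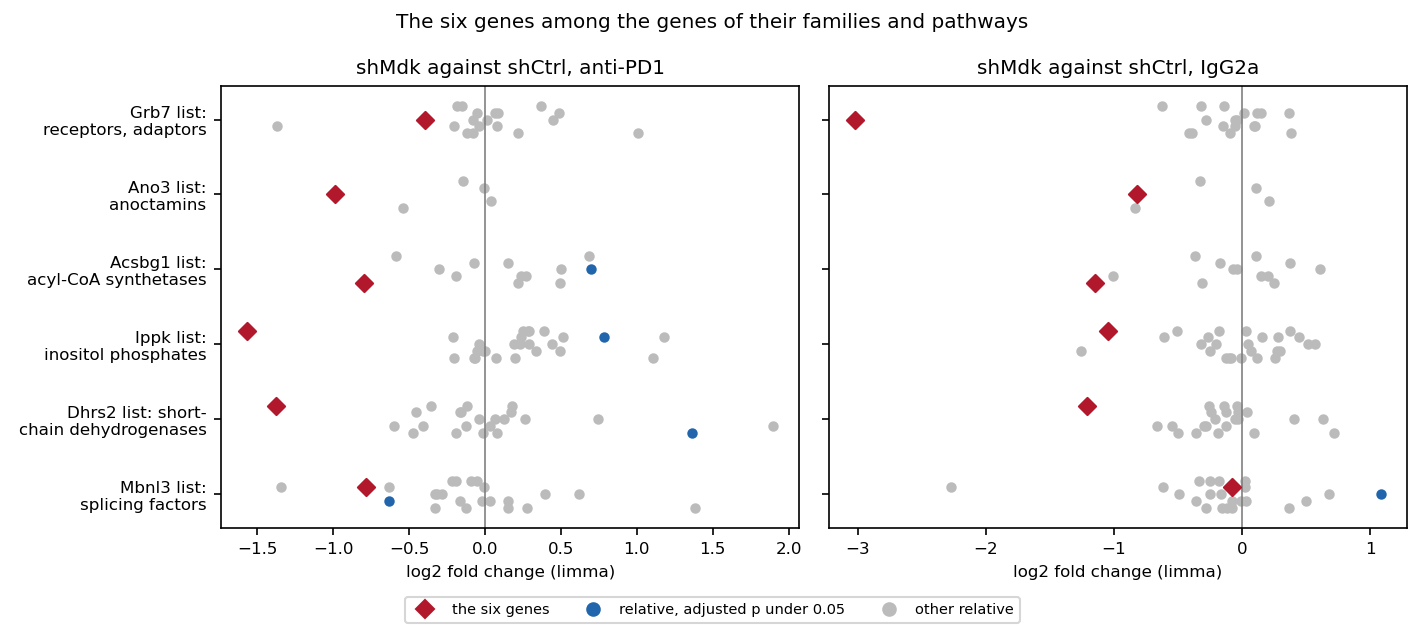
Log2 fold changes (limma, horizontal axes) of the members and of 103 relatives in shMdk against shCtrl tumours under anti-PD1 (left) and IgG2a (right), 1 row of points for each list. Red diamonds are the 6 genes, blue circles relatives with an adjusted p under 0.05 and grey circles other relatives; the blue circles number 4 on the left (Acss1, Plcg2, Dhrs3 and Ptbp1) and 1 on the right (Ptbp2).

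Genes next to the members on the chromosome were mostly not called, which also holds for most genes tested. The nearest tested gene on either side of each member and the overlapping Cenpp made 13 neighbours. Under IgG2a limma, edgeR and DESeq2 called 0 of them, with 1 at an unadjusted p under 0.05, beside 9.69% of all genes. Under anti-PD1, limma called 0 lower and 1 higher, beside 0.995% and 4.93% of all genes. There 5 had an unadjusted p under 0.05, beside 17.8% of all genes, while edgeR called 1 and DESeq2 2, beside 5.9% and 8.93%. The 1 that passed in limma was Ecm2 beside Ippk: 8.0 ± 2.95 normalised counts in shMdk against 1.98 ± 1.19 in shCtrl tumours (log2 fold change 1.60 ± 0.43, limma adjusted p = 0.0340). Idh3a ends 0.216 kb from the end of Acsbg1 on the other strand and averaged 1349 ± 239 in shMdk and 1578 ± 132 in shCtrl tumours under anti-PD1, and 1470 ± 279 in shMdk and 1457 ± 180 in shCtrl tumours under IgG2a. Cenpp had knockdown log2 fold changes of 0.09 ± 0.21 under anti-PD1 and -0.08 ± 0.21 under IgG2a, while Ippk on the opposite strand had -1.56 and -1.05.

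Beside Grb7, Mien1 had knockdown log2 fold changes of -0.08 ± 0.17 under anti-PD1 and -0.01 ± 0.17 under IgG2a, and Ormdl3 had 0.24 ± 0.17 and -0.14 ± 0.17. Beside Ano3, Ccdc34 was lower on average under both antibodies, at -0.62 ± 0.26 and -0.67 ± 0.26 on the log2 scale, and did not pass (limma adjusted p = 0.196 and 0.328). It lies 482 kb from Ano3. Beside Dhrs2, Jph4 had -0.96 ± 0.32 under anti-PD1 (limma adjusted p = 0.0965) and -0.21 ± 0.32 under IgG2a, and its relative Dhrs4 had -0.41 ± 0.19 and -0.30 ± 0.19. The neighbours of Mbnl3 on the X chromosome, Rap2c and Gpc4, had 0.22 ± 0.14 and 0.91 ± 0.56 for anti-PD1 against IgG2a in shMdk tumours, where Mbnl3 had -1.04.

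**Figure D4:**
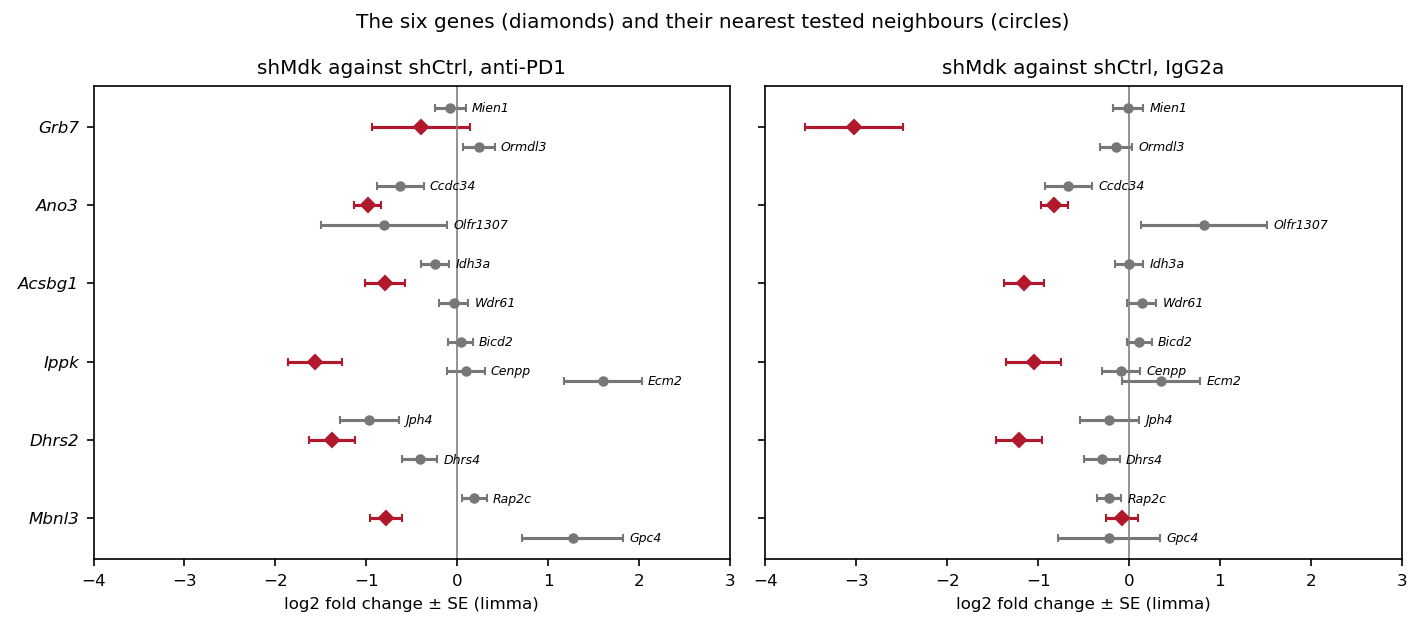
Log2 fold changes with standard errors (limma, horizontal axes) in shMdk against shCtrl tumours under anti-PD1 (left) and IgG2a (right) for the 6 genes (red diamonds) and their 13 tested neighbours (grey circles with symbols). Ecm2 is the neighbour that passed, to the right of 0 under anti-PD1 (1.60), on the other side of 0 from Ippk (-1.56).

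Each gene's values were also compared with those of 12219 named genes by Pearson's r over the 16 tumours on the log2 scale, as a description, since the tumours share groups and libraries. Ano3 was most like Dcdc2a (r = 0.93), Yipf4 (0.92) and Smo (0.89), and Dhrs2 was most like Lrrcc1 (0.93), Pcnt (0.93) and Mphosph8 (0.91). Mbnl3 was most like Got2 (0.93), Adrm1 (0.91) and Rpl6 (0.90). Acsbg1 was most like Art4 (0.86), Spry2 (0.85) and Primpol (0.85), Grb7 like Ttc12 (0.86), Eldr (0.85) and Rnf2 (0.85), and Ippk like Gja3 (0.84), Smarcd1 (0.84) and Bmyc (0.83). No member was among the 3 genes most like another member.

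After group means were subtracted, so that only differences between tumours of 1 group remained, the lists were almost entirely different. Grb7 was then most like Prdm9 (r = 0.89), Uhmk1 (0.86) and Eldr (0.86), with Eldr the single gene to stand in both lists of any member. Ano3 was most like Cited2 (0.90), Tob1 (0.87) and Bmt2 (0.87), and Acsbg1 like P3h2 (0.82), Pms1 (0.81) and Prkar1b (0.79). Ippk was most like Stk25 (0.86), Aida (0.85) and Mpc1 (0.80), Dhrs2 like Arid1b (0.85), Rbpms2 (0.85) and Rtn4ip1 (0.85), and Mbnl3 like Ttll5 (0.83), Cc2d2a (0.82) and Snora47 (0.81).

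The tumours expressed melanoma markers, and RNA of leukocyte markers was higher in shMdk tumours. All 15 melanoma and pigment genes were in the table and none was at 0 in all tumours of a group. Their summed normalised counts were 123746 to 163254 in shMdk anti-PD1, 144317 to 165839 in shMdk IgG2a, 151740 to 207020 in shCtrl anti-PD1 and 169055 to 203357 in shCtrl IgG2a tumours. Under IgG2a every shMdk sum was below every shCtrl sum, and under anti-PD1 the lines overlapped. Limma called 0 of these 15 genes in either knockdown comparison, as did edgeR and DESeq2, with 2 at an unadjusted p under 0.05 under anti-PD1 and 0 under IgG2a. Their median knockdown log2 fold change was -0.19 under anti-PD1 and -0.14 under IgG2a.

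Most leukocyte genes went the other way. Of the genes listed, 24 were analysed here. Their sums were 5538 to 10408 in shMdk anti-PD1 and 2923 to 5235 in shMdk IgG2a tumours, against 1480 to 2615 in shCtrl anti-PD1 and 1464 to 1849 in shCtrl IgG2a tumours. Limma called 17 of the 24 higher in shMdk tumours under anti-PD1 and 9 under IgG2a, beside 4.93% and 1.63% of all genes. Under IgG2a, 2 of the 24 had a negative knockdown log2 fold change. Under anti-PD1 limma also called 4 of 8 fibroblast genes and 3 of 9 endothelial genes higher, beside the same 4.93% of all genes. Under IgG2a limma, edgeR and DESeq2 called 0 of either list, also at an unadjusted p under 0.05. All 5 red blood cell genes had negative knockdown log2 fold changes under both antibodies, with medians of -0.48 under anti-PD1 and -1.05 under IgG2a. Limma and edgeR called 0 of these 5, also at an unadjusted p under 0.05 in limma, and DESeq2 called 2 under anti-PD1 (Hbb-bt and Alas2). Their sums were 13689 to 31493 in shMdk anti-PD1 and 7808 to 32281 in shMdk IgG2a tumours, against 3576 to 574472 in shCtrl anti-PD1 and 5306 to 123865 in shCtrl IgG2a tumours, and overlapped between the lines. The part of these marker differences in the values of the 6 genes was not tested, and in bulk RNA fewer cells of a type and less RNA per cell cannot be told apart.

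**Figure D5:**
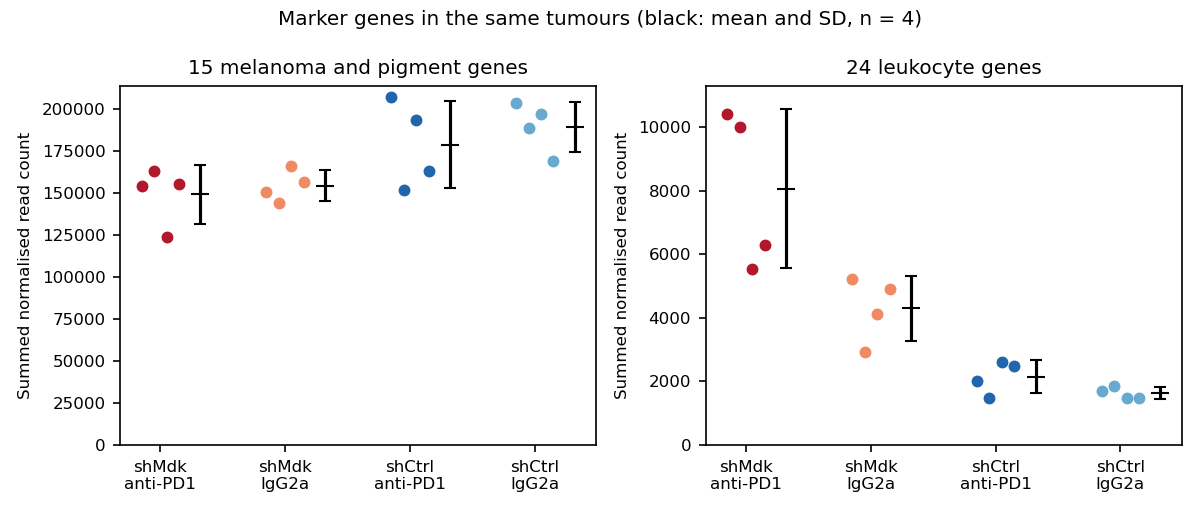
Summed normalised read counts of 15 melanoma and pigment genes (left) and 24 leukocyte genes (right) by tumour, from 0, with shMdk groups left of shCtrl groups and black marks for the mean and SD of 4 tumours. Leukocyte sums of all 8 shMdk tumours (2923 to 10408) are above those of all 8 shCtrl tumours (1464 to 2615), whereas the melanoma sums overlap between the lines under anti-PD1 and are lower in all shMdk than in all shCtrl tumours under IgG2a.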

How the data were processed

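The deposited table gives 1 normalised signal per gene and tumour. The submitters' processing notes name TopHat2 2.0.10 with Bowtie 1.0.0, HTSeq, DESeq2, FastQC 0.11.0 and SAMtools 0.1.19, and build GRCm38 (mm10). Per the labels' protocols, 500 ng of RNA (integrity number 8.6 on average, 5.8 to 9.2) went into a stranded 3′ kit. In this signal 100% of values were whole reads within 0.001, so reads were recovered, and size factors recomputed from them equalled the deposited ones in 16 of 16 tumours. Tumours of 1 group differed by more than counting error (chi-square per degree of freedom of at least 8.86).

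The main test was limma 3.58.1 (R 4.3.3, trend, 12 residual degrees of freedom) on log2(value + 1), which understates the change of low genes. It used all 16 tumours and genes with a mean of at least 5, with Benjamini-Hochberg adjustment over the 14672 genes of each comparison and a threshold of 0.05. edgeR 4.0.16 and DESeq2 1.42.0 ran on recovered reads. GC slopes used the last 300 bases of 99.7% of genes. The members, lists and tests were chosen with earlier results of these data known. Named genes are the members, Mdk, passing and closest relatives from each list, the nearest tested neighbours and the 3 most similar genes.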

Additional observations from a re-analysis of the deposited data

Results flagged for a closer look

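Dhrs2 in shMdk IgG2a tumour 2 had 202 normalised counts and stood far above the other 3 tumours of its group, which had 141 to 147. The summed red blood cell genes of shCtrl anti-PD1 tumour 2 were 574472, far above the others of its group, and this library also had the most Gm42418 reads. Those of shMdk anti-PD1 tumour 1 were 31493 and also stood apart. The same held for the endothelial sum of shMdk IgG2a tumour 4, at 2741, and the keratinocyte sum of shMdk anti-PD1 tumour 2, at 138. A sample was picked out where its gap to the nearest other tumour, divided by the range of the group, exceeded Dixon's critical value for 4 samples. Of 60 groups examined 5 met this, where chance gives about 1 in 20.

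For Grb7, every shMdk anti-PD1 tumour was above the shMdk IgG2a mean and every shCtrl anti-PD1 tumour was below the shCtrl IgG2a mean, with a difference between the anti-PD1 effects of 2.63 on the log2 scale. It did not pass in limma (adjusted p = 0.9998), and it contains the comparison that chose the gene, so it is no independent test.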

How the results depend on the processing

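The number of members called in shMdk against shCtrl under anti-PD1 was 5, all lower, beside 0.995% of all genes called lower. It was 4 to 5 under all 18 alternatives. Under IgG2a it was 4, beside 0.109% called lower, and 3 to 5 when single tumours were left out. It was 2 without the 5 libraries with a positive GC slope, a setting chosen after the data were seen that also has fewer IgG2a tumours. Both counts take in genes that their comparison chose, so nothing is read from how steady they were. For anti-PD1 against IgG2a in shMdk tumours the 1 call, Mbnl3, became 0 with a pseudocount of 0.5, without the filter, with TMM scaling, without the 2 libraries high in Gm42418 and without the 5 GC-slope libraries. It was 0 to 1 when single tumours were left out, and stood only without shMdk anti-PD1 tumour 3. Over 18 alternatives the adjusted p of Mbnl3 ran between 5.70e-05 and 0.259, and its log2 fold change between -1.10 and -0.97. The counts were 0 throughout in shCtrl tumours and for the difference between the lines. In the tumours outside their choosing comparison, Ano3 passed in 18 of 18 alternatives, Dhrs2 in 13, Acsbg1 in 11 and Ippk in 2, each with the same sign. These values were also known when the genes were brought together, so the passes are no independent support. The Acsbg1 call was also lost in a fit of the 8 tumours alone (adjusted p = 0.0644) and without the Gm42418 libraries (0.0754). Counts over all genes were 255 under IgG2a and 870 under anti-PD1, against 449 and 1310 with DESeq2, 74 under IgG2a without the GC-slope libraries, and 136 to 271 and 443 to 858 when single tumours were left out. For anti-PD1 in shMdk tumours the count was 5, against 0 to 244. Where no value above shows it, the cause was not tested. Depth limits Grb7 most, with 0 to 47 reads per tumour. No paired analysis was possible because the labels carry no replicate numbers that the groups share.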
